A study of Mus musculus with 6 samples.

Results

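The PDGF, VEGF and KIT system is described here by 10 genes, taken by gene symbol: the receptors Pdgfra, Pdgfrb, Kit, Kdr and Flt1, the co-receptor Nrp1, and the ligands Pdgfa, Pdgfb, Vegfa and Kitl. All 10 were found among the 55401 genes of the count table, and all 10 passed the filter on low counts. The libraries, from polyadenylated RNA of mouse embryonic stem (ES) cells, form 2 groups of 3, each library from its own Petri dish. The first group is labelled as expressing a 3XHA-tagged Taf13 and was untreated. The second is labelled KO and was given doxycycline, and all cells were cultured for 7 days. TAF13 is a subunit of TFIID, the general factor that places RNA polymerase II on promoters, and the comparison asks how RNA levels differ when it is lost. The sources used here do not name the line, its genetic background, its clonal origin or the way doxycycline acts on Taf13. The KO label and the drug always occur together, so their contributions cannot be told apart. P-values measure the spread between dishes, which may share a starting culture.

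Apart from neuropilin 1, these receptors are tyrosine kinases of the cell surface with immunoglobulin-like outer domains and a kinase domain split by an insert. PDGF-A binds PDGF receptor alpha, PDGF-B binds both PDGF receptors, and KIT ligand (stem cell factor) binds KIT. VEGF-A binds FLT1 (VEGF receptor 1), which holds it tightly but signals weakly and also exists as a soluble decoy, and KDR (VEGF receptor 2), the main signalling receptor of endothelial cells. Neuropilin 1 joins KDR as a VEGF co-receptor and is also a receptor for class 3 semaphorins. In the blastocyst, PDGF receptor alpha marks primitive endoderm, the extraembryonic layer that lines the epiblast. KIT is known from germ cells, blood stem cells and melanocytes and is also present on ES cells, and KDR marks the mesoderm that gives rise to vessels and blood.

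Libraries held 31219328 to 50328010 counts. Levels are gene counts scaled to TMM-adjusted library size (CPM), and 3 counts correspond to 0.0581 to 0.0961 CPM, a limit that covers counting error only. Expressing replicate 1 stood apart from the other expressing libraries, with a chi-square per degree of freedom of 37.9 and 30.8 against at most 6.2 for the other pairs within a group. Taf13 itself was at 7.82, 10.1 and 12.2 CPM in the expressing libraries, against 12.1, 14.1 and 13.5 CPM in those labelled KO. It was thus no lower under the KO label (log2 fold change 0.40, SE 0.147, adjusted p = 0.0578, edgeR). The counts do not separate a tagged from a chromosomal copy, so they do not check the label. The ES-cell markers Pou5f1, Sox2, Nanog, Zfp42, Esrrb, Dppa5a, Utf1 and Lin28a were each at 108 CPM or more in every library, and 7 of the 8 fell under the KO label, from Zfp42 (log2 fold change -1.37) and Nanog (-1.24) to Utf1 (-0.41). Lin28a did not pass the test (0.01, SE 0.0564). With edgeR's quasi-likelihood test and a Benjamini-Hochberg adjusted p under 0.05, the KO label went with higher levels for 19.2% of the 17778 genes tested and with lower levels for 20.8%, together 40%. Their median log2 fold change was -0.01. Scaling by library totals in place of TMM gave 25.1% up and 14.5% down, so that 63.5% of calls were upward in place of 48.1%.

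Of the 10 genes, 5 rose (Pdgfra, Kdr, Flt1, Nrp1 and Pdgfa), 2 fell (Kit and Vegfa) and 3 did not pass the test (Pdgfrb, Pdgfb and Kitl), beside 40% called among all tested genes, 19.2% up and 20.8% down. Changes of 2-fold or more were seen for Pdgfra, Kdr and Flt1, beside 5.22% of all tested genes that rose as much. Of the 10, none fell 2-fold, beside 3.64% of all. The groups did not overlap for 8 of the 10, against 53.5% of all tested genes. All libraries labelled KO lay above for 6 of the 10 (26.4% of all tested genes) and below for 2 (27.1%), while Pdgfrb and Kitl overlapped. The median log2 fold change of the 10 was 0.38. RNA of a bulk culture does not tell fewer cells of a type from less RNA per cell.

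**Figure D1:**
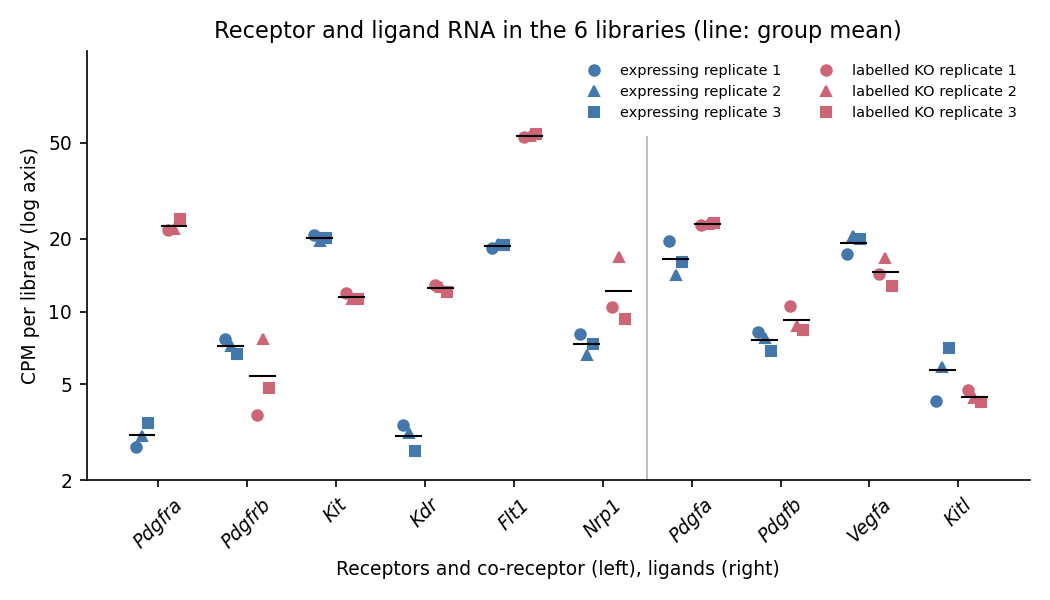
CPM of each gene in each library on a log axis, with expressing libraries in blue, libraries labelled KO in red, a symbol for each replicate number and a black line at the group mean. Pdgfra, Kdr and Flt1 sit well above their expressing level in every library labelled KO, Kit sits below, and KO replicate 2 stands above the other libraries labelled KO for Pdgfrb and Nrp1.

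Pdgfra (ENSMUSG00000029231; mm10 chromosome 5, 75152292 to 75198215, plus strand), the PDGF receptor alpha gene, had counts of 86, 135 and 126 in the expressing libraries, against 757, 986 and 1244 in those labelled KO. That is 2.76, 3.06 and 3.45 CPM against 21.7, 21.9 and 24.1 CPM, so every library labelled KO lay far above every expressing library. Pdgfra rose 7.28-fold (log2 fold change 2.86, SE 0.108, adjusted p = 5.44e-07, edgeR). Its exons overlap those of Gm42802 and Gm42803 on the opposite strand and of the microRNA gene Mir7025, which were listed at 0 counts in every library.

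Pdgfrb (ENSMUSG00000024620; chromosome 18, 61045150 to 61085061, plus strand), the receptor beta gene typical of pericytes and other mesenchymal cells, was at 7.69, 7.23 and 6.65 CPM in the expressing libraries. In the libraries labelled KO it was at 3.73, 7.67 and 4.81 CPM. The first and the third of these lay below all expressing libraries, while KO replicate 2 lay at the expressing level. Over all libraries the log2 fold change was -0.40 (SE 0.222, 95% interval -0.90 to 0.10, adjusted p = 0.177, edgeR). Without KO replicate 2 it was -0.74 (SE 0.151) and passed the test (adjusted p = 0.0084, edgeR). Within a library, the log2 ratio of Pdgfra to Pdgfrb counts, which no scaling of libraries can alter, was -1.48, -1.24 and -0.94 in the expressing libraries, against 2.54, 1.51 and 2.32 in those labelled KO. Pdgfrb thus had the larger count of the pair in every expressing library and Pdgfra in every library labelled KO.

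Kit (ENSMUSG00000005672; chromosome 5, 75574916 to 75656722, plus strand), the stem cell factor receptor gene, had 646, 867 and 737 counts in the expressing libraries, against 417, 508 and 580 in those labelled KO. Its levels were 20.7, 19.7 and 20.2 CPM against 12.0, 11.3 and 11.2 CPM, with little spread in either group and no overlap. Kit fell by 0.81 on the log2 scale (SE 0.0769, adjusted p = 5.42e-05, edgeR).

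Kdr (ENSMUSG00000062960; chromosome 5, 75932827 to 75978458, minus strand), the VEGF receptor 2 gene, had 106, 139 and 97 counts in the expressing libraries, against 450, 571 and 619 in those labelled KO. At 3.40, 3.15 and 2.66 CPM against 12.9, 12.7 and 12.0 CPM, the groups were widely apart. Kdr rose 4.08-fold (log2 fold change 2.03, SE 0.114, adjusted p = 3.12e-06, edgeR). Flt1 (ENSMUSG00000029648; chromosome 5, 147561604 to 147726011, minus strand), the VEGF receptor 1 gene, was at 18.3, 19.0 and 18.9 CPM in the expressing libraries, against 52.5, 53.4 and 54.1 CPM in those labelled KO. It rose 2.84-fold with the smallest standard error of the 10 genes (log2 fold change 1.51, SE 0.0645, adjusted p = 9.93e-07, edgeR). Counts per gene do not separate the membrane-bound from the soluble FLT1 transcript.

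Nrp1 (ENSMUSG00000025810; chromosome 8, 128358604 to 128503363, plus strand), the neuropilin 1 gene, was at 8.04, 6.60 and 7.31 CPM in the expressing libraries, against 10.4, 16.8 and 9.30 CPM in those labelled KO. All libraries labelled KO lay above the expressing ones, but KO replicate 2 stood well above the other members of its group. Nrp1 rose by 0.74 (log2; SE 0.206, adjusted p = 0.0183, edgeR), and without KO replicate 2 by 0.43 (SE 0.128, adjusted p = 0.0362, edgeR). Leaving out any 1 of expressing replicates 1, 2 and 3 ended the call (edgeR adjusted p = 0.158, 0.0789 and 0.0528), and so did removing a GC trend from each library (0.13). Its exons contain Mir1903, listed at 0 counts.

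Among the ligands, Pdgfa (ENSMUSG00000025856; chromosome 5, 138976014 to 138997370, minus strand) was at 19.5, 14.1 and 16.0 CPM in the expressing libraries, against 22.9, 22.9 and 23.3 CPM in those labelled KO. The groups did not overlap, and the spread was wider among the expressing libraries. Pdgfa rose by 0.48 (log2; SE 0.112, adjusted p = 0.00788, edgeR). It shares 813 exonic bases with the antisense gene 6330403L08Rik, which was at 1.08 ± 0.0712 and 2.19 ± 0.152 CPM (SD, n = 3), and the sources used here do not give the strand setting of the counting.

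Pdgfb (ENSMUSG00000000489; chromosome 15, 79995874 to 80014977, minus strand) was at 8.20, 7.80 and 6.84 CPM in the expressing libraries, against 10.6, 8.74 and 8.41 CPM in those labelled KO. The ranges lay side by side without overlap, and the difference did not pass the test (log2 fold change 0.28, SE 0.12, 95% interval 0.0051 to 0.55, adjusted p = 0.0961, edgeR). It passed without expressing replicate 1 (0.35, adjusted p = 0.00884, edgeR), with the GC trend removed (0.36, 0.0128) and with libraries scaled by their totals (0.36, 0.0471).

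Vegfa (ENSMUSG00000023951; chromosome 17, 46016993 to 46032369, minus strand), the main VEGF ligand gene, was at 17.34, 20.48 and 20.01 CPM in the expressing libraries, against 14.4, 16.6 and 12.8 CPM in those labelled KO. All libraries labelled KO were below all expressing libraries by a small margin. Vegfa fell by 0.40 on the log2 scale (SE 0.112, adjusted p = 0.0178, edgeR). The test was no longer passed when expressing replicate 3 (edgeR adjusted p = 0.069), the first KO library (0.0642) or the third (0.0832) was left out, or with library totals (0.0517).

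Kitl (ENSMUSG00000019966; chromosome 10, 100015630 to 100100416, plus strand), the KIT ligand gene, was at 4.26, 5.87 and 7.03 CPM in the expressing libraries, against 4.73, 4.39 and 4.21 CPM in those labelled KO. Expressing replicate 1, the library that stood apart, fell within the range of the libraries labelled KO, and the other expressing libraries lay above it. The log2 fold change was -0.37 (SE 0.17, 95% interval -0.76 to 0.0063, adjusted p = 0.107, edgeR). Without expressing replicate 1 it was -0.51 and passed (adjusted p = 9.09e-04, edgeR), as it did with the GC trend removed (-0.42, 0.00618).

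Receptors and ligands were also set against each other within libraries, as log2 ratios of counts in 6 pairs. Kdr to Vegfa went from -2.65 ± 0.283 to -0.21 ± 0.157 (SD, n = 3), and Pdgfra to Pdgfa from -2.41 ± 0.355 to -0.03 ± 0.0711. Kdr to Nrp1 went from -1.25 ± 0.197 to 0.09 ± 0.429, with KO replicate 2 the lowest of its group at -0.40, and Kdr to Flt1 from -2.61 ± 0.204 to -2.09 ± 0.0741. Kit to Kitl was the pair of the 6 with a lower ratio in the libraries labelled KO, at 1.84 ± 0.389 against 1.37 ± 0.042. This difference of -0.48 was -0.26 without expressing replicate 1, the library that stood apart. The groups did not overlap in any of the 6 pairs. Each pair holds Pdgfra, Kdr or Kit, whose own groups did not overlap, so this is not independent of their changes. An exact two-sided permutation test gave p = 0.1 for each, also after Benjamini-Hochberg adjustment over the 6, which is the smallest p that 3 libraries against 3 allow.

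Divided by exon length, the levels of different genes can be compared. In the expressing libraries the order in CPM per kb of exon was Pdgfa (5.31 ± 0.883, SD, n = 3), Vegfa (4.50 ± 0.396), Kit (2.26 ± 0.0583), Pdgfb, Flt1 (1.39 ± 0.0284), Pdgfrb, Kitl, Nrp1, Kdr (0.340 ± 0.0419) and Pdgfra (0.308 ± 0.0346). The ranges of Pdgfa and Vegfa, Flt1 and Pdgfrb, Kitl and Nrp1, and Kdr and Pdgfra overlapped, so these neighbours were not separated. Kit was thus the receptor with the highest level per length in expressing cells, and Kdr and Pdgfra the lowest of the 10 genes. In the libraries labelled KO the order was Pdgfa (7.38 ± 0.0692), Flt1 (3.95 ± 0.0559), Vegfa (3.41 ± 0.446), Pdgfra (2.25 ± 0.134), Pdgfb, Kdr (1.39 ± 0.0519), Kit (1.29 ± 0.0453), Nrp1, Pdgfrb and Kitl. Neighbours from Kdr down to Kitl overlapped, as did Pdgfra and Pdgfb. Flt1 and Pdgfra were then above Kit. Lengths cover the exons of all annotated transcripts, so a gene that uses short transcripts is placed too low.

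**Figure D2:**
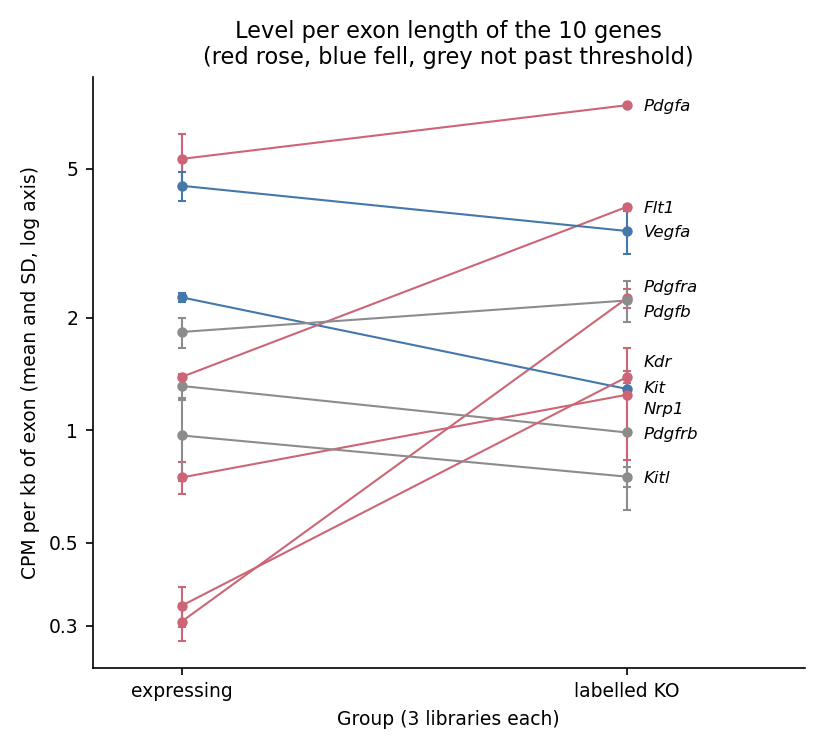
Mean level per kb of exon (CPM per kb, log axis) of the 10 genes in the expressing libraries and in the libraries labelled KO, with SD over 3 libraries. Lines of Pdgfra and Kdr rise from 0.308 and 0.340 to 2.25 and 1.39 CPM per kb and cross or meet that of Kit, which falls from 2.26 to 1.29 CPM per kb.

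Of the 13 tested among 14 relatives of these genes (further PDGF and VEGF ligands, class III and V receptors and their ligands), 4 rose and 3 fell, beside 19.2% and 20.8% of all tested genes, with a median log2 fold change of 0.31. Among genes of the VEGF family, Vegfc, ligand of VEGF receptor 3 and in processed form also of KDR, was at 7.50 ± 0.917 CPM against 12.6 ± 1.18 CPM under the KO label (SD, n = 3) and rose by 0.75 (log2; SE 0.119, adjusted p = 9.78e-04, edgeR). Pgf, placental growth factor, a ligand of FLT1 but not of KDR, rose by 0.74 (SE 0.181, adjusted p = 0.00974, edgeR), with 2.17 ± 0.438 and 3.64 ± 0.549 CPM. Vegfb, which also binds FLT1 but not KDR, fell by 0.60 on the log2 scale (SE 0.121, adjusted p = 0.00368, edgeR), with 18.3 ± 3.2 and 12.0 ± 0.446 CPM. The FLT1 ligand genes Pgf and Vegfb thus changed in opposite directions. Vegfd had a log2 fold change of 0.31 (SE 0.169, adjusted p = 0.168) and Flt4, the VEGF receptor 3 gene, of -0.05 (SE 0.153, 95% interval -0.39 to 0.30), and neither passed.

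Nrp2, neuropilin 2, the paralogue of Nrp1 and a co-receptor for VEGF-C, was at 60.6, 58.3 and 57.0 CPM in the expressing libraries, against 33.0, 32.9 and 32.8 CPM in those labelled KO. It fell by 0.83 on the log2 scale (SE 0.0614, adjusted p = 1.37e-05, edgeR), the direction opposite to Nrp1.

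Pdgfc, which binds PDGF receptor alpha after its CUB domain is cleaved off, fell by 0.38 on the log2 scale (SE 0.119, adjusted p = 0.0315, edgeR), with 27.6 ± 3.78 and 21.3 ± 2.54 CPM (SD, n = 3) and overlapping groups. It did not pass without expressing replicate 2 (edgeR adjusted p = 0.0806) or 3 (0.115), without KO replicate 1 (0.118) or 3 (0.125), or with library totals (0.0787). Pdgfd, a ligand of receptor beta, was at 2.41 ± 0.372 and 3.30 ± 0.517 CPM and did not pass (0.44, SE 0.171, adjusted p = 0.0674, edgeR). Pdgfrl, a gene for a PDGF receptor-like protein without a kinase domain, rose by 0.45 (SE 0.14, adjusted p = 0.0299, edgeR). Without KO replicate 2 it was at 0.36 and did not pass (adjusted p = 0.117, edgeR), nor did it without KO replicate 1 (0.084) or expressing replicate 2 (0.0677) or 3 (0.111). Of the genes for ligands of receptor alpha, Pdgfa was thus called higher and, over all 6 libraries, Pdgfc lower.

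In the class III receptors beyond PDGF and KIT, Csf1r, the macrophage colony-stimulating factor receptor gene, was at 0.0274 to 0.136 CPM in the expressing libraries, against 0.0287 to 0.111 CPM in those labelled KO, and too low to be tested. Its ligand gene Csf1 was at 26.9, 23.1 and 21.6 CPM in the expressing libraries, against 47.7, 75.7 and 52.4 CPM in those labelled KO. Csf1 rose by 1.30 (log2; SE 0.164, adjusted p = 2.77e-04, edgeR), and by 1.07 without KO replicate 2, its highest library. Il34, the other CSF1 receptor ligand gene (0.17, SE 0.191), Flt3 (-0.44, SE 0.314) and its ligand gene Flt3l (0.40, SE 0.242) did not pass.

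**Figure D3:**
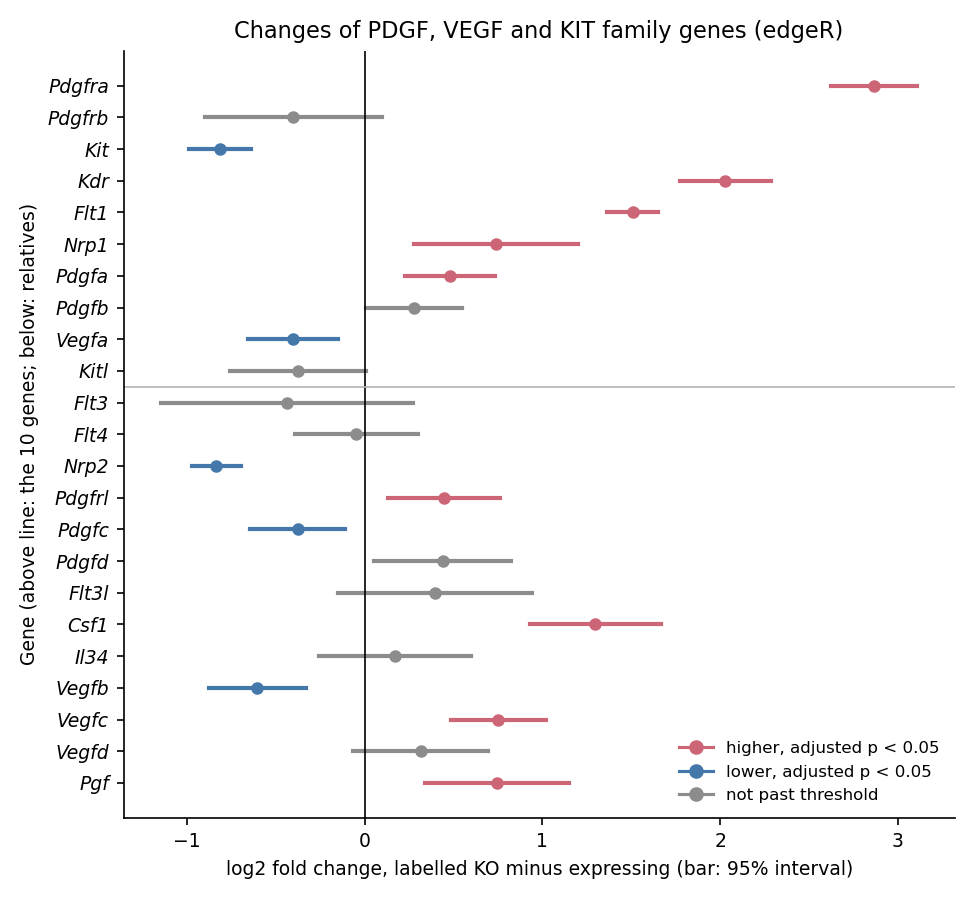
Log2 fold change (labelled KO minus expressing) with its 95% interval for the 10 genes, above the grey line, and their 13 tested relatives, below it; red and blue mark genes past the threshold in edgeR. Pdgfra at 2.86, Kdr at 2.03 and Flt1 at 1.51 lie furthest to the right, with Csf1 at 1.30 next, and Nrp2 (-0.83) and Kit (-0.81) furthest to the left.

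The partners of the neuropilins, which are semaphorin and plexin genes and the adaptor gene Gipc1, numbered 7 higher and 1 lower of 12 tested among 13. These stand beside 19.2% and 20.8% of all genes, and the median log2 fold change was 0.55. Sema3e, whose product signals through plexin D1, rose by 0.99 (SE 0.078, adjusted p = 2.01e-05) and Sema3c by 0.72 (SE 0.0945, adjusted p = 3.42e-04, edgeR). Plxna2, a plexin that pairs with neuropilins, fell by 0.43 on the log2 scale (SE 0.108, adjusted p = 0.0111, edgeR). Without expressing replicate 2 there were 2 partners lower, with Gipc1 (-0.30) added, beside 20.1% of all tested genes. Of 26 tested among 27 adaptors and effectors that carry the signal of these kinases, 7 rose and 6 fell, beside 19.2% and 20.8% of all tested genes, with a median of 0.02. Gab1, a docking protein, fell by 0.72 on the log2 scale (SE 0.0563, adjusted p = 1.99e-05, edgeR) while its paralogue Gab2 rose by 0.73 (SE 0.135, adjusted p = 0.00234, edgeR). Grb10, an adaptor and an imprinted gene, fell by 0.55 on the log2 scale (SE 0.0562), and Sos2, a RAS exchange factor, rose by 0.51 (SE 0.0858). Leaving out KO replicate 1, 2 and 3 in turn gave 4, 3 and 3 increases, beside 14.6%, 14.1% and 14.3% of all tested genes.

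KO replicate 2 stood apart in the genes that fibroblasts and mural cells express. A library was called raised for a gene where it was at least 1.25 times the mean of KO replicates 1 and 3, a ratio chosen after the values were seen. By this measure KO replicate 2 was raised for 8.75% of all tested genes, for 12 of 17 fibroblast markers and for 6 of 10 mural cell markers. Of the 10 genes, Pdgfrb (1.80 times) and Nrp1 (1.70 times) were raised, and the remaining 8 lay between 0.92 and 1.22 times. The abundant fibroblast collagen genes Col1a1 and Col1a2 were at 1.88 and 2.15 times, the mesenchymal transcription factor gene Prrx1 at 2.13, and Cspg4, the gene of the pericyte proteoglycan NG2, at 2.28, 4 genes chosen after their values were seen. Of the relatives, Csf1 was at 1.51 times and Pgf at 1.28. The summed level of the 18 fibroblast markers ran from 487 to 572 CPM in the expressing libraries, and from 778 to 1038 CPM in those labelled KO. Vim, which ES cells also express, was the largest part, at 525, 643 and 555 CPM in KO replicates 1, 2 and 3. The median log2 fold change of the 17 tested fibroblast markers was 0.17, so the sums do not stand for the list. The summed level of the 12 mural cell markers ran from 384 to 466 CPM in the expressing libraries, and from 730 to 974 CPM in those labelled KO. Tagln, Acta2 and Notch3 were the largest parts, at 314, 203 and 180 CPM of a sum of 754 CPM in KO replicate 1. As 5 of the 10 tested mural markers did not pass between the groups, this sum does not stand for its list either. No marker of either list was at 0 in every library, while Higd1b, a pericyte marker, was at 0 in 5 of 6. The part of such cells in the Pdgfrb, Nrp1 and Csf1 values was not tested.

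**Figure D4:**
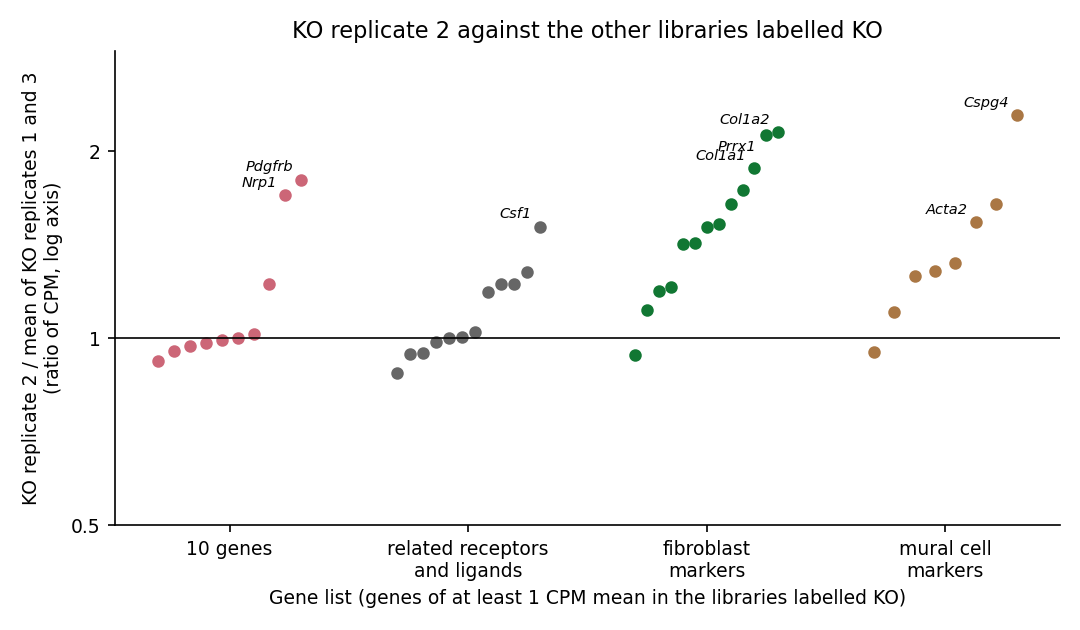
Ratio of the CPM in KO replicate 2 to the mean of KO replicates 1 and 3 (log axis), a point for each gene of at least 1 CPM mean in the libraries labelled KO, ordered within each list. Pdgfrb and Nrp1, at 1.80 and 1.70, sit above the other 8 genes, of which Vegfa is the highest at 1.22. They lie below the collagen genes Col1a1 (1.88) and Col1a2 (2.15) and above Col3a1 (1.51) and Col5a1 (1.42).

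Fibroblast markers numbered 8 higher and 1 lower of 17 tested and mural markers 5 higher and 0 lower of 10 tested (edgeR), beside 19.2% higher and 20.8% lower over all tested genes. At an unadjusted p under 0.05, 1 mural marker was lower, and DESeq2 called 0 lower. Dcn, the decorin gene, rose by 2.10 (log2; SE 0.238) and Vim by 1.06 (SE 0.0846), the smooth muscle genes Tagln and Acta2 rose by 0.96 (SE 0.105) and 1.55 (SE 0.171), and the cell-surface marker gene Thy1 fell by 0.89 on the log2 scale (SE 0.169). Without KO replicate 2 the fibroblast counts were 4 higher and 3 lower and 1 mural marker was lower. Those lower were Thy1 (-1.13), Col6a1 (-0.57) and Col1a2 (-0.31) and the mural marker Cspg4 (-0.82). Over all tested genes that omission gave 14.1% higher and 14.7% lower. Fibroblast increases numbered 5 without expressing replicate 1 and 4 without expressing replicate 2 or 3. Of all tested genes, 26.2%, 17.2% and 15.3% were higher without expressing replicate 1, 2 and 3.

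Markers of primitive endoderm, the blastocyst lineage that PDGF receptor alpha marks, were higher in 20 of 20 by edgeR, beside 19.2% of all genes. The count lower was 0 by edgeR, by DESeq2 and with no adjustment of p. Pdgfra was not on that list. The list was chosen with earlier results of these data known, so the count of 20 is not an independent test. Their median log2 fold change was 1.79, and their summed level ran from 1505 to 1679 CPM in the expressing libraries, and from 2914 to 2968 CPM in those labelled KO. Cubn, the cubilin receptor gene, and Lama1, a laminin chain gene of the basement membrane, had the smallest p-values (log2 fold changes 3.41 and 2.15). As the sum was 1505 CPM or more in every expressing library too, it does not measure how many cells were of this lineage. Whether primitive endoderm cells were present, and their part in the Pdgfra value, was not tested.

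Endothelial and blood progenitor markers, typical of the lineages in which Kdr, Flt1 and Kit are known, numbered 6 higher and 6 lower of 20 tested, beside 19.2% and 20.8% of all tested genes, with a median log2 fold change of 0.00. Runx1, a regulator of blood formation, was at 3.84 ± 0.651 CPM against 16.8 ± 0.814 CPM under the KO label (SD, n = 3) and rose by 2.13 (log2; SE 0.124), and Eng, the endoglin gene, by 1.12 (SE 0.102). Sox18 fell by 1.74 on the log2 scale (SE 0.257) and Egfl7 by 0.61 on the log2 scale (SE 0.115). Cdh5, the gene of the endothelial cadherin, was at 0.159 to 0.224 CPM in the expressing libraries, against 0.803 to 1.18 CPM in those labelled KO (log2 fold change 2.39, SE 0.298). Etv2 and Tal1 code for factors at the base of the blood and vessel lineages. Etv2 was at 1.09 to 1.31 CPM in the expressing libraries and at 0.698 to 0.917 CPM under the KO label, and Tal1 at 4.88 to 5.54 and 3.47 to 4.44 CPM. Over all 6 libraries both were called lower (edgeR adjusted p = 0.0317 and 0.0434). Neither call held without KO replicate 2 (0.0982 and 0.094), KO replicate 3 (0.113 and 0.0524), expressing replicate 1 (0.0514 and 0.0713) or expressing replicate 3 (0.11 and 0.119), with library totals (0.0582 and 0.126) or by DESeq2 (0.0774 and 0.0625). That of Tal1 was also lost without KO replicate 1 (0.143). The summed level of the 22 genes ran from 118 to 131 CPM in the expressing libraries, and from 155.2 to 157.6 CPM in those labelled KO, with Pecam1, which ES cells express, highest in the expressing libraries (40.4 to 42.2 CPM) and Eng in those labelled KO (48.2 to 52.0 CPM). Cdh5, Etv2 and Tal1 fall outside the rule for named genes and were chosen after their values were seen. Targets of the hypoxia response, of which Vegfa is a well-known one, went both ways. Of 20, 8 were higher and 8 lower, beside 19.2% and 20.8% of all tested genes. Without KO replicate 1, 5 were higher, beside 14.6% of all tested genes. Ldha, lactate dehydrogenase A, fell by 1.00 on the log2 scale (SE 0.0652) and Hk2, hexokinase 2, by 0.57 on the log2 scale (SE 0.053), while the collagen prolyl hydroxylase gene P4ha2 rose from 11.5 to 24.8 CPM and Ddit4, an inhibitor of mTORC1, by 0.80 (SE 0.062).

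On the genome, 5 of the 10 genes lie on chromosome 5, and Pdgfra, Kit and Kdr are neighbours there in a span of 826 kb. Kit begins 377 kb after the end of Pdgfra, and Kdr, on the opposite strand, ends 276 kb after Kit. The outer genes of the trio, Pdgfra and Kdr, rose and Kit between them fell. Within 500 kb on either side of the span, 7 further genes were tested, of which 2 fell and 5 did not pass (edgeR). Of all tested genes, 20.8% fell and 19.2% rose. Lnx1, an E3 ubiquitin ligase gene, fell by 1.84 on the log2 scale (SE 0.256, adjusted p = 4.81e-04, edgeR), with 1.23 ± 0.251 and 0.344 ± 0.0313 CPM (SD, n = 3), and Pdcl2, a phosducin-like gene, by 1.14 (SE 0.242, adjusted p = 0.00489), with 2.04 ± 0.577 and 0.939 ± 0.158 CPM. Chic2, Srd5a3, Tmem165, Clock and the pseudogene Ube2n-ps1 had log2 fold changes of 0.25, 0.12, 0.13, -0.19 and -0.21. Chic2 passed the test by DESeq2 and with library totals, and Chic2 and Clock passed with the GC trend removed and without expressing replicate 1.

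**Figure D5:**
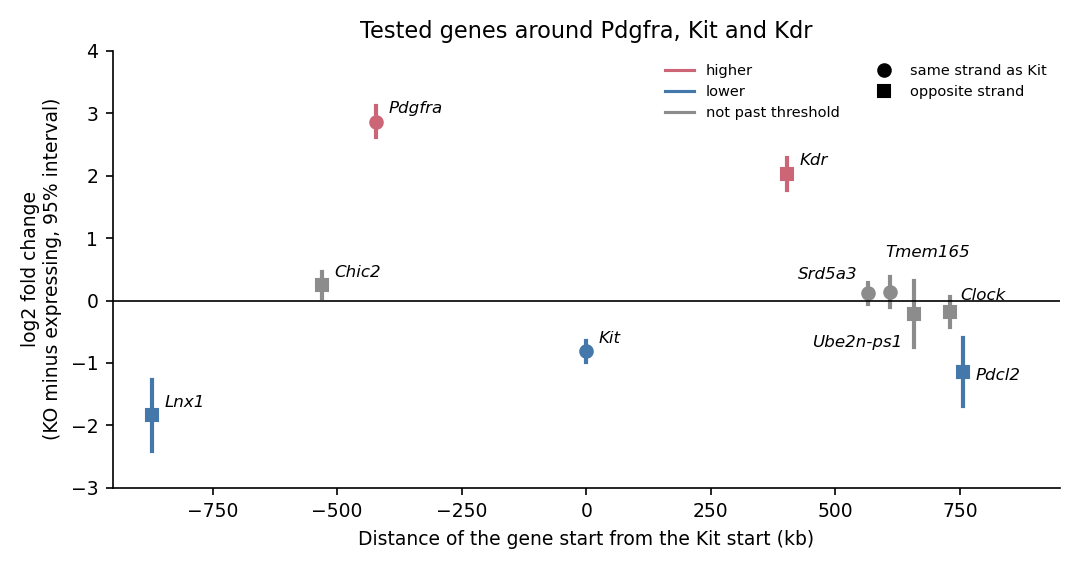
Log2 fold change with 95% interval of the 10 tested genes around the receptor trio, by the distance of each gene start from the Kit start in kb; circles share the strand of Kit and squares lie opposite. Pdgfra and Kdr, at -423 and 404 kb, are the points above 2, while Kit, Lnx1 and Pdcl2 are the genes past the threshold below 0.

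Because TFIID acts at core promoters, the start regions of the receptor genes that changed most are shown, with that of Kitl as the second window of these genes that holds a TATA motif. RefSeq windows of GRCm38.p6, the release of the mm10 assembly, were matched by symbol for 8 of the 10 genes, and not for Pdgfrb and Pdgfb. Each sequence is the 250 bases before the RefSeq start, 5′ to 3′ on the strand of the gene. RefSeq starts differ from some of the gene starts given above. The Kdr, Kit and Kitl windows run past the gene starts at 75978458, 75574916 and 100015630. Motif distances below refer to the RefSeq starts. Capitals mark matches, on either strand, to TATAAA (the TATA box core), GGGCGG (the GC box bound by SP1) and TGACGTCA (the full cAMP response element). These letters were chosen after the windows were seen.
Flt1, chr5:147726012-147726261, minus strand: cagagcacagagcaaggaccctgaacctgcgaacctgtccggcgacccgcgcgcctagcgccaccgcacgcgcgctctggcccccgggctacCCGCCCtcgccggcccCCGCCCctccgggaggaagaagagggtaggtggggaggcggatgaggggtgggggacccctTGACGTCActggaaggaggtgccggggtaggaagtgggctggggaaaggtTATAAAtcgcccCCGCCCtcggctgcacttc
Kdr, chr5:75978456-75978705, minus strand: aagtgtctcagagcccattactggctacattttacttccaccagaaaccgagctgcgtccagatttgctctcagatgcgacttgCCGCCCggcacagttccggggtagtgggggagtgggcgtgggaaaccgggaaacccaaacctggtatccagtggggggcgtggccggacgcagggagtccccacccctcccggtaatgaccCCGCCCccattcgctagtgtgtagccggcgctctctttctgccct
Pdgfra, chr5:75152001-75152250, plus strand: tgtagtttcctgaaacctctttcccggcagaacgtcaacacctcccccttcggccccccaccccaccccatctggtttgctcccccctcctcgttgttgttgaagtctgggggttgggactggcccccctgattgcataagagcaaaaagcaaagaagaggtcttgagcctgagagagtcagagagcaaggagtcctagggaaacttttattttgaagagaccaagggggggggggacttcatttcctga
Kit, chr5:75574737-75574986, plus strand: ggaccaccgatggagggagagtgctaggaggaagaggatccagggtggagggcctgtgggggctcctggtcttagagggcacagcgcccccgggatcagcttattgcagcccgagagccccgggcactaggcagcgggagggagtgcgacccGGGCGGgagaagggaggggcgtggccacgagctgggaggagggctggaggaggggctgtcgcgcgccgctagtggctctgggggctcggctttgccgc
Kitl, chr10:100015571-100015820, plus strand: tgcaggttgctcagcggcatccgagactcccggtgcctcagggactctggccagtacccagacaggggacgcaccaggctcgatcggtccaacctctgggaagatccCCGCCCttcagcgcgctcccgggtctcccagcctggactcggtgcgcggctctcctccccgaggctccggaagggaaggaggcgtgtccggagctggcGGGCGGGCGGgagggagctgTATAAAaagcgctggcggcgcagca

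The Flt1 window holds TATAAA with its first base 31 bases before the start, TGACGTCA at 81 bases before it, and 3 GC boxes. Kitl holds TATAAA at 25 bases before the start and 3 GC boxes. Kdr has 2 GC boxes, Kit has 1, and the Pdgfra window holds none of the 3 motifs. Of all 32851 windows of this length in the table, 12.4% hold TATAAA on either strand, 32.7% GGGCGG and 1.55% TGACGTCA. On the strand of the gene, where the TATAAA of Flt1 and Kitl lies, 7.59% hold TATAAA. These shares count a match at any position of the window. The GATA motif AGATAA, found in 9.99% of all windows, was present among the 8 genes in the first Vegfa window, 182 bases before the start. The GC content of the windows was 54.4% for Pdgfra, 61.6% for Kdr, 70.8% for Kit, 69.2% for Kitl and 70.4% for Flt1, beside a median of 52.4% over all windows. Of the pair with TATAAA, Flt1 rose and Kitl did not pass the test.

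The genes most like the members that rose 2-fold or more were sought by the root mean square difference of centred log2 CPM over the 6 libraries, among 14073 other genes with a mean of at least 1 CPM and no library at 0. Nearest to Pdgfra were Foxq1, a forkhead transcription factor gene (difference 0.117, log2 fold change 2.91), and Gm525 (0.13, 2.92). For Kdr they were Pmp22, a myelin protein gene (0.0935, 2.02), and Scn3b, an auxiliary sodium channel subunit gene (0.117, 2.04). For Flt1 they were Tshr, the thyrotropin receptor gene (0.0499, 1.58), and Hoxc13, a homeobox gene (0.0623, 1.50). With 2 groups of 3 libraries, likeness rests mainly on a fold change of the same size.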

How the data were processed

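RNA of 6 mouse ES cell libraries was measured by stranded poly(A) sequencing, from 800 ng of total RNA with 12 PCR cycles per the labels' protocols. The authors deposited raw read counts per Ensembl gene; the submitters' processing notes name the build mm10, the counter HTSeq 0.6.1p1, the aligner STAR 2.5.3a, bcl2fastq 2.20.0.422 and cutadapt 1.10. Neither the strand setting nor the annotation release is given in the sources used here. Symbols and positions came from GENCODE M21 of the same build, which named 55141 of 55401 identifiers.

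The counts were tested in R 4.3.3 with edgeR 4.0.16: filterByExpr (minimum count 10, minimum total 15), TMM, glmQLFit (robust) and glmQLFTest with the group as the only term, on the whole table, with Benjamini-Hochberg adjustment over 17778 genes and a threshold of 0.05. Standard errors and 95% intervals came from the test statistic. The steps were tested on simulated data. Ratios used counts plus 0.5. Alternatives were library totals, DESeq2 1.42.0 and its size factors, other filters, a GC trend removed, the replicate number as a block, and each library left out.

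The 10 genes and the lists were chosen with earlier results of these data known. Named were the 10 genes, their tested relatives, the 2 genes of smallest p called in each direction from every other list, the most abundant and zero-level markers, the nearest profiles and the tested neighbours on chromosome 5; exceptions are stated.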

Additional observations from a re-analysis of the deposited data

How the results depend on the processing

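Pdgfra, Kdr, Flt1, Kit and Pdgfa kept their direction and their call under all alternatives run, the omission of each library included. Leaving out each library in turn gave log2 fold changes of 2.82 to 2.96 for Pdgfra, 1.95 to 2.13 for Kdr, 1.50 to 1.53 for Flt1, -0.84 to -0.77 for Kit and 0.37 to 0.64 for Pdgfa. The calls of the other 5 genes depended on the processing, with no change of direction. The same omissions gave 0.43 to 0.91 for Nrp1, -0.51 to -0.31 for Vegfa, 0.17 to 0.35 for Pdgfb, -0.51 to -0.19 for Kitl and -0.74 to -0.21 for Pdgfrb. With library totals, under which the median over all tested genes was 0.08 in place of -0.01, Pdgfb passed (0.36) and Vegfa did not (-0.31), leaving 1 of the 10 lower. Without a filter on low counts Pdgfrb (-0.40) and Kitl (-0.37) passed, for 4 of the 10 lower, and the region around the receptor trio had 4 genes higher. With the GC trend removed Pdgfb (0.36) and Kitl (-0.42) passed and Nrp1 (0.68) did not. The replicate block (the number in the titles as a term) changed no call of the 10 genes, and with the block and the GC trend removed together Pdgfb (0.36) and Kitl (-0.42) passed and Nrp1 (0.66) did not. The deviations of same-numbered libraries correlated at 0.0491, -0.0999 and 0.129 across genes, and those of unlike numbers at -0.195 to 0.178. A pairing by number was thus not seen, but 3 libraries per group cannot exclude one. Omitting libraries gave 1 to 3 lower among the 10 genes. Fibroblast markers numbered 4 to 8 higher and 1 to 3 lower, and mural markers 0 to 1 lower. There were 1 to 2 lower neuropilin partners, 3 to 10 higher adaptors and effectors, and 5 to 9 higher hypoxia targets. Over all tested genes the same omissions gave 14.1% to 26.2% higher and 14.5% to 24.7% lower. The cause of these shifts was not tested. Depth was not limiting for the 10 genes, which had 86 counts or more in every library, while Csf1r was too low to test.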
